A study of Mus musculus with 18 samples.

Results

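The transcriptional effect of fine particulate matter (PM2.5) was measured in whole mouse spleen and in macrophages isolated from spleen, and the 2 effects were compared gene by gene. All 18 of the 18 libraries of the series entered 1 model with 4 group means. For each gene the PM2.5 effect in whole spleen (log2 fold change, PM2.5 over air) was subtracted from the PM2.5 effect in macrophages. The result, called the difference below, is negative where the gene went further up, or less far down, in whole spleen than in macrophages. Of 55414 gene identifiers, 17779 had enough counts for the test.

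All mice were wild type C57BL/6J. Whole spleens came from mice kept for 30 days in filtered air (4 libraries) or in PM2.5 (4 libraries), and macrophages from mice labelled with 30 days of air (5 libraries) or of PM2.5 (5 libraries). The sample names call the PM2.5 groups CAP, which the labels do not expand. For the macrophage experiment the protocol also speaks of filtered air in a wording that leaves unclear whether the mice breathed it after the exposure. The labels number the libraries of a group as biological replicates and do not say whether animals were pooled, how the macrophages were isolated, or the age and sex of the mice. The 2 preparations came from 2 experiments, so a difference between the preparations and a difference between the experiments cannot be told apart. One library stands against its own labels: macrophage PM2.5 replicate 1 is PM2.5 by title and description and air by its treatment tag. It was kept with PM2.5, and the counts that rest on it are given below also without it and with it counted as air. The title of the series names erythrocyte turnover as the subject.

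The spleen removes old red blood cells. Macrophages of the red pulp take them up, break down heme with heme oxygenase, store iron in ferritin and return it to plasma through the exporter ferroportin. Their development depends on the transcription factor Spi-C, and they carry scavenger receptors for hemoglobin, mannose-bearing glycoproteins and apoptotic cells. Around them lie B and T cells, plasma cells, stroma and sinus endothelium, and in mice the red pulp can also make red blood cells. In RNA from a whole organ, more cells of a type and more RNA per cell cannot be told apart.

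The promoters of 4 genes that the results turn on are shown because 3 of them carry strongly negative differences and the other a positive one. They are Stab2 (ENSMUSG00000035459, chr10:86841198-87008025, minus strand), Gdpd2 (ENSMUSG00000019359, chrX:100729873-100738895, plus strand), Mrc1 (ENSMUSG00000026712, chr2:14229392-14332057, plus strand) and Ly6c2 (ENSMUSG00000022584, chr15:75108158-75111970, minus strand), with gene positions from GENCODE M21 on GRCm38. The sequences below are the 250 bases before the RefSeq start site on GRCm38.p6, written 5′ to 3′ on the strand of the gene. Capitals mark the core motif of the myeloid factor PU.1, GAGGAA, or its complement TTCCTC on the other strand.
Stab2 chr10:87007943-87008192 (minus strand): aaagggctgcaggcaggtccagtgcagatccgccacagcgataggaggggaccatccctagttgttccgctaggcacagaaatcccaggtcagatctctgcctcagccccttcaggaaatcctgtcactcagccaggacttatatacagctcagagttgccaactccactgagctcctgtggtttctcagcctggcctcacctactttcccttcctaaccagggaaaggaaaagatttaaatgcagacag
Gdpd2 chrX:100729597-100729846 (plus strand): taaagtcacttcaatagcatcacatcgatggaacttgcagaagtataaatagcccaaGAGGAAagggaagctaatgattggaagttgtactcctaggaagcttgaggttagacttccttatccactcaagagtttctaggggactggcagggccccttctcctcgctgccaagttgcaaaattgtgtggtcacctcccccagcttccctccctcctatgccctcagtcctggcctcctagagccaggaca
Mrc1 chr2:14229164-14229413 (plus strand): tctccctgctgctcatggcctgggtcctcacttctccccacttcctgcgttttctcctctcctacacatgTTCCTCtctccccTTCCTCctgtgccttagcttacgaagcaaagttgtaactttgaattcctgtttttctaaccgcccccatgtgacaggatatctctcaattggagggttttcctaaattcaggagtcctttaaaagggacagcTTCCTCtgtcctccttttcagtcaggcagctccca
Ly6c2 chr15:75111972-75112221 (minus strand): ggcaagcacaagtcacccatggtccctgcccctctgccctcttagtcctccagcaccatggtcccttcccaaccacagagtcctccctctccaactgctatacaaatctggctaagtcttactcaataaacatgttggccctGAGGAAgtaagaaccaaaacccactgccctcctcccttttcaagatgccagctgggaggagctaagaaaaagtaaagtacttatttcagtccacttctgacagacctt
The window of Stab2 held 0 matches, that of Gdpd2 1, that of Mrc1 3 and that of Ly6c2 1. Of 32851 RefSeq promoter windows of the same length, 7639 (23.3%) held at least 1 match. A match describes the letters of the window and is not a measured binding site.

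Library totals lay between 16493694 and 20352346 counts in whole spleen and between 18107264 and 33844807 in macrophages. The defining red pulp markers matched the macrophage label: Vcam1 had a mean of 5970 ± 758 CPM (SD, n = 5) in macrophage air and 124 ± 40.3 CPM (n = 4) in spleen air, and Spic 630 ± 66.4 and 33.9 ± 12.6 CPM. CPM is the usual depth-scaled count of a gene, here relative to the TMM-scaled total of its library. Transcripts of B cells remained in the macrophage preparations, where Cd79a, a part of the B cell receptor, had 449 ± 90.5 CPM under air and 534 ± 96.9 CPM under PM2.5. Some spleen libraries stood apart from their group. The summed level of 24 liver and pancreas genes was 61 and 114 CPM in spleen air replicates 3 and 4, and between 2.71 and 25 CPM in the other 6 spleen libraries. Erythroid genes were highest in spleen PM2.5 replicates 2 and 4 (values below), and spleen air replicate 1 was the highest of the 4 air spleens for several red pulp macrophage genes.

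After PM2.5, receptors of scavenger macrophages such as Stab2, Mrc1 and Cd163 were higher in whole spleen, while no gene passed the threshold in isolated macrophages. In the edgeR quasi-likelihood test, 259 of 17779 genes (1.46%) had a difference with an adjusted p under 0.05, which is the meaning of passed and called below. The p-values measure the spread between these libraries. The spread of a gene was estimated jointly over the 4 groups, so a p-value for either preparation also carries the spread in the other. For 74 genes (0.416%) the difference was above 0 and for 185 (1.04%) below 0. In the same fit the effect in spleen alone was called for 1050 genes (5.91%), 687 up (3.86%) and 363 down (2.04%). The effect in macrophages was called for 0 genes in edgeR, with 1074 at an unadjusted p under 0.05. Macrophage libraries fitted on their own in edgeR also gave 0 called genes, with 1704 of 15696 tested genes at an unadjusted p under 0.05. DESeq2 called 76 genes in macrophages and limma-voom 0.

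All 185 genes with a negative call had a positive effect in spleen, called there for 176, and 170 had a negative effect in macrophages. Their median effects were 1.79 in spleen and -0.32 in macrophages, against 0.03 and 0.01 over all tested genes. Of the 74 genes with a positive call, 73 had a negative effect in spleen, called there for 52. All 74 had a positive effect in macrophages, and the medians were -0.58 in spleen and 0.28 in macrophages. The difference is computed from these 2 effects, so choosing genes by it favours effects of opposite sign in both sets. The effect in spleen was larger in size than the effect in macrophages for 182 of the 185 and for 60 of the 74. Over all tested genes the 2 effects were almost unrelated, with a Pearson r of 0.039 and a Spearman rho of -0.134 across genes, which are not independent replicates. The plot of both effects shows the negative calls as a wide band along the spleen axis and most positive calls as a tight group at small effects.

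**Figure D1:**
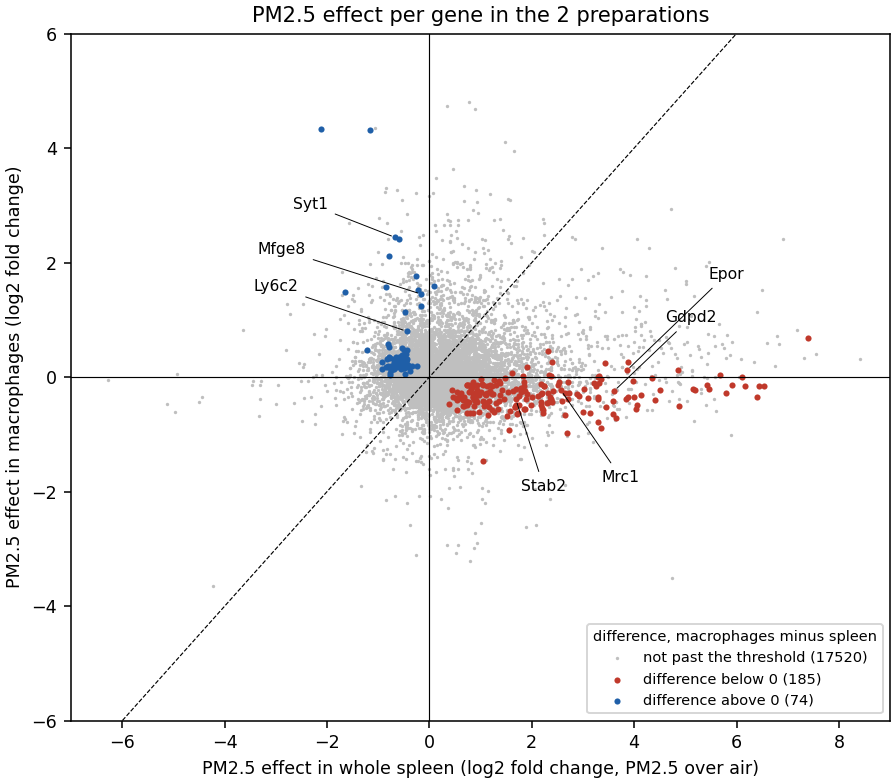
PM2.5 effect in whole spleen (horizontal axis, log2 fold change) against that in macrophages (vertical axis, log2 fold change), 1 point per tested gene. Red points are the 185 genes with a called difference below 0, blue points the 74 with one above 0 and grey points all other tested genes, and the dashed line marks equal effects. Fitted values of genes with a group near 0 counts depend on the small count added by the fit.

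The number of calls differed widely between fits. Stab2 and Gdpd2 passed under all 31 alternative fits, with differences from -2.22 to -1.76 and from -4.34 to -3.56. DESeq2 called 1044 differences, limma-voom 3 (Stab2, Gdpd2 and the noncoding transcript 4931431B13Rik), and limma-voom with a separate weight for each preparation 2 (Stab2 and Gdpd2). With DESeq2's size factors the split was 38 above and 192 below 0. Fitted on their own, the 8 spleen libraries gave 2 called genes in place of 1050, over 16551 tested genes. Without macrophage PM2.5 replicate 1 the count was 152, and with it counted as air 87, of which 0 were positive. Without spleen air replicates 3 and 4 it was 9, and without spleen PM2.5 replicates 2 and 4 it was 48. Omitting single libraries gave from 68 calls (without spleen air replicate 3) to 1317 (without spleen air replicate 2). Calls close to the threshold were lost under most of the 31 alternatives: Acat2 under 27, Rps27, Cox6b1 and Fdps under 24, Rps13 and Cdh11 under 23, Slc39a8, Nid2 and Rpl23 under 21, and Trbc2, Dusp1 and Rpl24 under 20 each.

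Stab2 encodes stabilin-2, a scavenger receptor that binds hyaluronan and phosphatidylserine on dying cells. In replicate order, which is used for all lists of libraries, spleen air had 15, 11.9, 7.85 and 11.7 CPM and spleen PM2.5 31.6, 27.5, 40 and 50 CPM. Macrophage air had 375, 425, 440, 362 and 515 CPM and macrophage PM2.5 322, 353, 342, 257 and 338 CPM. Every PM2.5 spleen was above every air spleen, as for 4.36% of tested genes, and every PM2.5 macrophage library was below every air one, as for 0.81%. The difference was -2.08 (SE 0.253, adjusted p = 0.00106), with a 95% interval of -2.61 to -1.55. The effect was 1.69 in spleen and -0.39 in macrophages, called in spleen (adjusted p = 0.000308) and not in macrophages (0.724).

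Gdpd2, a membrane glycerophosphodiesterase, showed the same contrast at low level in both preparations. Spleen air libraries had 1.38, 0.913, 0.473 and 2.42 CPM and spleen PM2.5 libraries 13.6, 12, 14.3 and 23.1 CPM. In macrophages the values were 0.877, 2.42, 1.51, 1.18 and 2.17 CPM under air and 1.33, 1.92, 1.17, 0.951 and 1.4 CPM under PM2.5. The spleen groups lay far apart, and the macrophage groups overlapped. Its difference was -3.85 (SE 0.536, adjusted p = 0.00495), with a 95% interval of -4.97 to -2.73. Unlike Stab2, Gdpd2 was at about the same level in air spleen and air macrophages, so the PM2.5 spleens exceeded the isolated macrophages as well.

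Mrc1 and Cd163 mark mature scavenger macrophages. Mrc1, the mannose receptor, had 5.65, 3.8, 1.75 and 3.07 CPM in spleen air and 10.7, 16.1, 19 and 38.3 CPM in spleen PM2.5. In macrophages Mrc1 had 1880, 1980, 1890, 1520 and 2610 CPM under air and 1860, 1730, 1830, 1310 and 1740 CPM under PM2.5. The spleen groups did not overlap and the macrophage groups did, and the difference was -2.8 (SE 0.434, adjusted p = 0.00877). Cd163, which takes up complexes of hemoglobin with haptoglobin, had 2.53, 2.02, 2.46 and 1.04 CPM in spleen air and 4.13, 9.27, 8.77 and 17.8 CPM in spleen PM2.5. Macrophage libraries had 833, 1020, 1020, 803 and 1140 CPM under air and 798, 744, 828, 803 and 788 CPM under PM2.5. Again only the spleen groups were apart, with a difference of -2.59 (SE 0.403, adjusted p = 0.00877). Both calls were lost in limma-voom, in limma-voom with weights by preparation and without spleen air replicates 3 and 4, and the largest adjusted p of either gene over the 31 alternatives was 0.129.

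The 26 genes of the red pulp macrophage list all had a negative difference, and 10 of them, against 1.04% of all tested genes (Stab2, Cd163, Mrc1, Fcgr1, Siglece, Stab1, Csf1r, C6, Adgre1 and Treml4) passed. The median difference was -1.25, against -0.03 over all tested genes, made of a median effect of 0.91 in spleen and -0.24 in macrophages. In spleen 24 of the 26 effects were positive and 15 were called (3.86% of all tested genes), and in macrophages 24 were negative and 0 called. The summed level of the list was 1010, 614, 515 and 629 CPM in spleen air and 939, 888, 1150 and 1350 CPM in spleen PM2.5. Spleen air replicate 1 was the only air spleen within the range of the PM2.5 spleens. In macrophages the sum was 26200 to 37200 CPM under air and 21800 to 30600 CPM under PM2.5. Without spleen air replicate 1 the number called was 17 and the median -1.48, while without spleen air replicates 3 and 4 it was 1 and -0.91. Over the 31 alternatives the median stayed between -1.48 and -0.91.

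Other receptors of the list were also higher in PM2.5 spleens. Siglece, an inhibitory receptor for sialic acid, had 1.08, 2.26, 1.84 and 1.81 CPM in spleen air and 6.26, 3.51, 8.81 and 13.8 CPM in spleen PM2.5, with a difference of -2.48 (SE 0.451, adjusted p = 0.0183). For Fcgr1, the high-affinity IgG receptor, the spleen values were 0.662, 0.865, 0.331 and 0 CPM under air and 1.96, 2.21, 3.37 and 4.76 CPM under PM2.5, and the difference was -2.78 (SE 0.497, adjusted p = 0.0183). Neither gene had overlapping spleen groups. Stab1, the sister receptor of stabilin-2, had a difference of -2.21 (SE 0.425, adjusted p = 0.0183), and C6, a component of the terminal complement pathway, one of -2.67 (SE 0.617, adjusted p = 0.0438). Spic and Vcam1 did not pass. For Spic, which encodes Spi-C, the difference was -0.38 (SE 0.258, adjusted p = 0.424), with a 95% interval of -0.92 to 0.16. Vcam1, an adhesion molecule, had -0.59 (SE 0.24, adjusted p = 0.174). In both genes spleen air replicate 1, at 52.6 and 184 CPM, lay well above the other 3 air spleens, and without that library Vcam1 had an adjusted p of 0.026. Itgad, the alpha D integrin, and Mertk, a receptor for apoptotic cells, did not pass, Itgad at -2.56 (SE 0.65, adjusted p = 0.0532) and Mertk at -1.07 (SE 0.287, adjusted p = 0.0595). Pla2g7, a secreted phospholipase, had -0.08 (SE 0.349, adjusted p = 0.929).

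**Figure D2:**
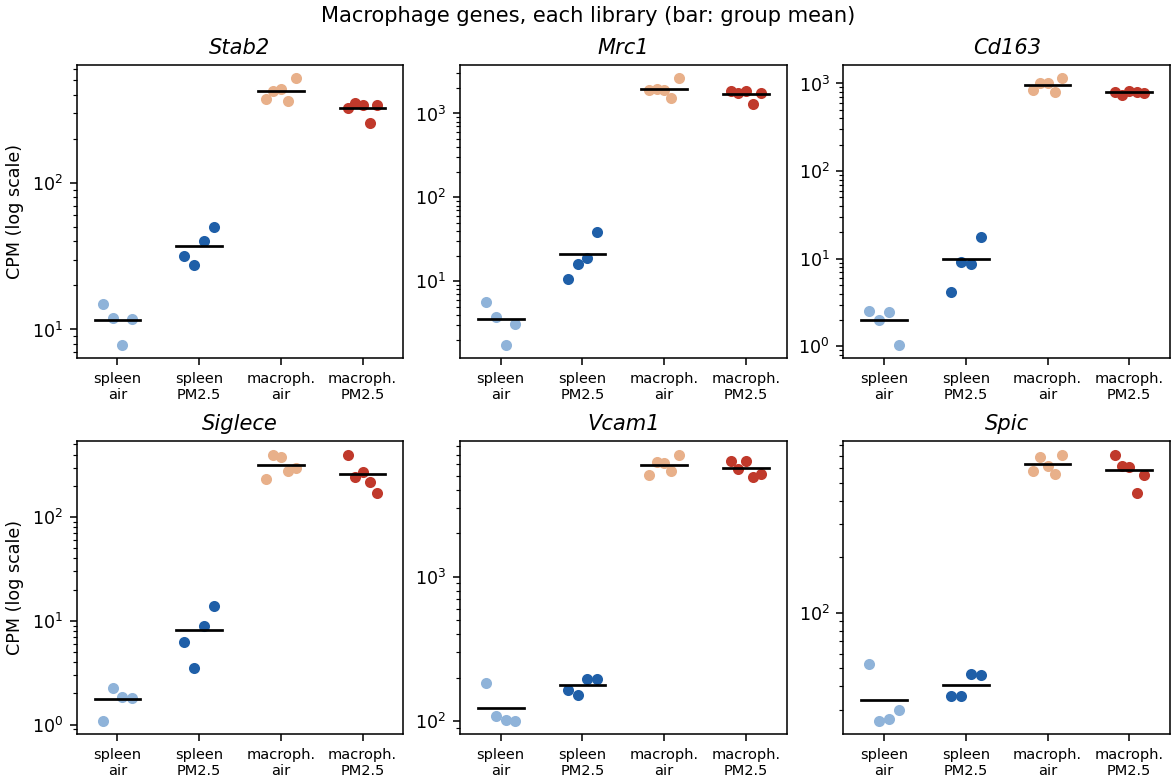
CPM on a log axis for 6 macrophage genes, 1 point per library in each of the 4 groups, with bars at the group means. In Stab2, Mrc1, Cd163 and Siglece the 4 PM2.5 spleens lie above the 4 air spleens and far below the macrophages, while in Vcam1 and Spic 1 air spleen lies among or above the PM2.5 spleens.

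Among genes at a higher level in macrophages than in whole spleen, negative calls were more frequent in the classes with a higher ratio. Genes were grouped by their level in macrophages over that in whole spleen, each taken as the mean of air and PM2.5. Among the 39 genes more than 6 log2 units higher in macrophages, 16 (41%) had a negative call and 0 a positive one, with a median effect of 1.87 in spleen and -0.28 in macrophages. Between 4 and 6 units, 29 of 202 genes (14.4%) had a negative call, with medians of 0.85 and -0.23. Between 2 and 4 units, 56 of 1084 (5.17%) were called below 0, and between -1 and 1 units 31 of 11212 (0.276%). The positive calls lay on the other side: 2 of the 74 were higher in macrophages, against 144 of the 185 negative calls and 9103 of all 17779 genes. The effect and the relative level come from the same libraries. Without spleen air replicates 3 and 4 the median difference of the 39 genes was -1.97 with 2 called, and without spleen PM2.5 replicates 2 and 4 it was -1.82 with 8 called. The plot of medians by relative level shows a higher spleen effect in the classes more enriched in macrophages, where the macrophage effect lies slightly below 0.

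**Figure D3:**
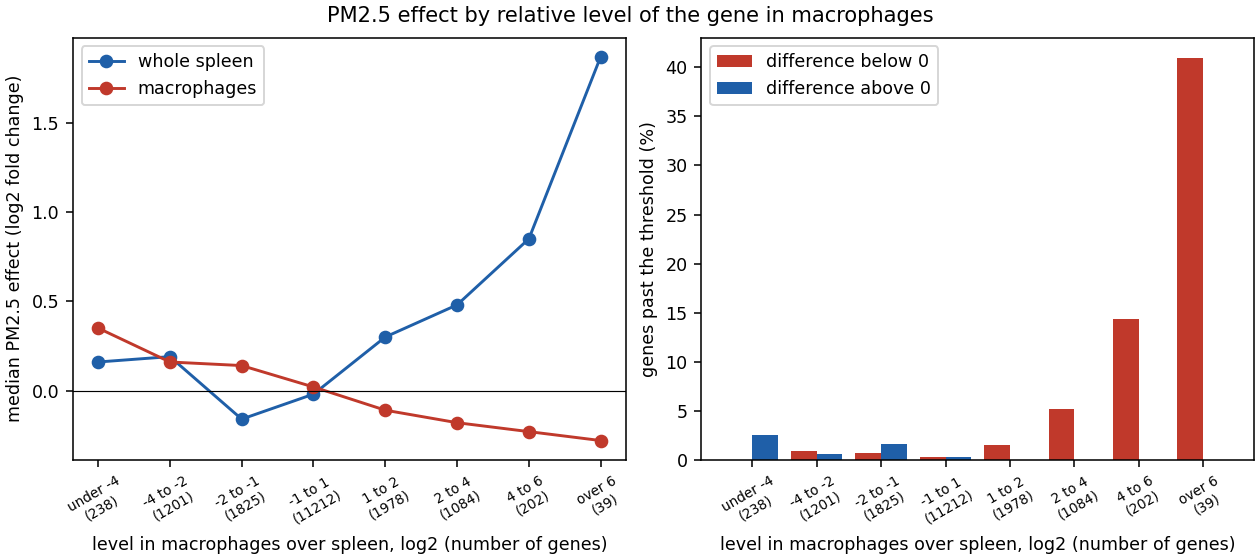
Left, median PM2.5 effect (log2 fold change) in whole spleen and macrophages by the level of the gene in macrophages over spleen (log2, number of genes in brackets). Right, percent of genes in each class with a called difference, reaching 41% below 0 for the 39 genes more than 6 units higher in macrophages.

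Other genes with the smallest p among the negative calls included 4 receptors, Hcar2, Ccr3, Pira2 and Gpr141. Hcar2, a receptor for nicotinate and ketone bodies, had 0.301, 0.673, 0.236 and 0 CPM in spleen air and 1.34, 2.26, 1.89 and 2.94 CPM in spleen PM2.5. In macrophages it had 133, 165, 166, 170 and 176 CPM under air and 127, 154, 152, 123 and 116 CPM under PM2.5, and the difference was -3.0 (SE 0.442, adjusted p = 0.00654). Spleen groups did not overlap. Ccr3, the eotaxin receptor, had 0.962, 0.528, 0 and 0.22 CPM in spleen air and 2.17, 3.36, 3.6 and 6.72 CPM in spleen PM2.5, with macrophage values between 293 and 458 CPM. Its difference was -3.41 (SE 0.53, adjusted p = 0.00877). Ccr3 is best known from eosinophils, and 2 of the 18 tested genes of eosinophils, basophils and mast cells passed, both negative, against 1.04% of all tested genes called below 0. The list median of -0.69 was -1.52 without spleen air replicate 1, -0.05 without spleen PM2.5 replicate 4 and -0.03 with a strict filter. Beside Ccr3 the called gene was Cma1, a chymase of mast cells, which had 0 counts in the air spleens, so no fold is given. Pira2, an activating immunoglobulin-like receptor, had -1.58 (SE 0.261, adjusted p = 0.0129), and Slc45a3, a solute carrier, -1.8 (SE 0.299, adjusted p = 0.0129). Gpr141, an orphan receptor of myeloid cells, had -1.31 (SE 0.211, adjusted p = 0.0107), and Raver2, an RNA-binding protein, -1.17 (SE 0.199, adjusted p = 0.0161). Ceacam18 counted 1 read over the 4 air spleens and 33 over the 4 PM2.5 spleens, against 287 and 318 over the macrophage groups (adjusted p = 0.0107), and no fold is given. The gene with the smallest p, named after its values were seen, was the noncoding transcript 4931431B13Rik on chromosome 7. It had 0, 0.192, 0 and 0 CPM in spleen air and 1.54, 2.11, 2.52 and 2.01 CPM in spleen PM2.5, against 64.1 to 113 CPM in macrophages, and a difference of -5.35 (SE 0.516, adjusted p = 5.81e-05). It kept its call under 30 of 31 alternatives and lost it in limma-voom with weights by preparation.

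Genes of heme breakdown and iron recycling had a median difference of -0.48 over 32 tested members, 24 of them negative and 3 called, against 1.04% of all tested genes: Cd163, Lrp1 and Slc39a8. Lrp1, the receptor that clears heme bound to hemopexin, had 18.9, 22.6, 16.7 and 19.4 CPM in spleen air and 39, 51.5, 66.9 and 153 CPM in spleen PM2.5. Macrophage libraries had 2280, 2670, 2590, 2220 and 3000 CPM under air and 1210, 2450, 2560, 1660 and 2170 CPM under PM2.5, and the difference was -2.34 (SE 0.422, adjusted p = 0.0183). The lowest of the 10 macrophage values was replicate 1 of PM2.5, the library with the air tag. Slc39a8, a metal importer, had a difference of -2.31 (SE 0.566, adjusted p = 0.0483). Slc40a1, which encodes ferroportin, missed the threshold at -1.26 (SE 0.365, adjusted p = 0.073). Its spleen values were 67.1, 25.7, 31.7 and 26.3 CPM under air and 62.1, 83.2, 95.9 and 118 CPM under PM2.5, with air replicate 1 above the lowest PM2.5 spleen, and in macrophages its effect was 0.00 (adjusted p = 1). The difference of Hmox1, heme oxygenase 1, was -0.58 (SE 0.442, adjusted p = 0.474), its spleen values being 144, 49.6, 46.2 and 42.7 CPM under air and 75.7, 97.8, 131 and 171 CPM under PM2.5. Ferritin heavy and light chains, Fth1 and Ftl1, had 0.13 (SE 0.206, adjusted p = 0.759) and 0.25 (SE 0.21, adjusted p = 0.537), and both have near-identical pseudogenes that make their counts uncertain. Slc11a1, an endosomal metal transporter, had -0.99 (SE 0.247, adjusted p = 0.0519). Without spleen PM2.5 replicates 2 and 4 the list median was -0.08, without spleen air replicates 3 and 4 -0.23, and without spleen PM2.5 replicate 2 alone -0.28.

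Receptors and bridging proteins for the clearance of red and dying cells mostly had negative differences. Of 33 tested members 30 had a negative difference, the list median was -0.5, and 2 were called below 0 (Stab1 and Stab2, against 1.04% of all tested genes) and 1 above (against 0.416%). That one was Mfge8, a secreted opsonin known from follicular dendritic cells, with a difference of 1.62 (SE 0.347, adjusted p = 0.0325). Spleen libraries had 859, 1200, 980 and 1240 CPM under air and 941, 883, 978 and 1020 CPM under PM2.5. Macrophage libraries had 20, 32.7, 23.8, 42.2 and 24.9 CPM under air and 126, 87.1, 43.6, 79.6 and 56.3 CPM under PM2.5. Here the spleen groups overlapped and every PM2.5 macrophage library was above every air one, as for 1.37% of tested genes, though the macrophage effect of 1.45 missed the threshold (adjusted p = 0.0573). With macrophage PM2.5 replicate 1 counted as air, the difference of Mfge8 was 0.74 (adjusted p = 0.608), and its call was lost under 14 of 31 alternatives.

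Several positive calls shared this form, a low level in macrophages that was higher in the PM2.5 libraries. Ly6c2, a surface protein of classical monocytes, had 123, 62.6, 86.5 and 74.2 CPM in spleen air and 66.3, 55.1, 64.6 and 69.5 CPM in spleen PM2.5. In macrophages it had 25.4, 22.4, 17.2, 22.7 and 18.5 CPM under air and 44.1, 34.8, 32.1, 35.3 and 39 CPM under PM2.5. The macrophage groups did not overlap, the spleen groups did, and the difference was 1.24 (SE 0.229, adjusted p = 0.0183), with -0.44 in spleen and 0.80 in macrophages. The monocyte list, Ly6c2 included, had 8 of 16 tested genes positive and 8 negative and a median of 0.03 (-0.35 with macrophage PM2.5 replicate 1 counted as air), and Gpr141 was called below 0. Syt1, a calcium sensor of vesicle release, had 11.4, 7.4, 9.08 and 10.3 CPM in spleen air and 6.97, 3.55, 8.32 and 5.13 CPM in spleen PM2.5. Macrophage values were 0.0797, 0.181, 0.264, 0.154 and 0.12 CPM under air and 1.21, 1.42, 0.422, 1.22 and 0.342 CPM under PM2.5, with no overlap, and the difference was 3.1 (SE 0.582, adjusted p = 0.0183). Mlc1, a membrane protein best known from astrocytes, and Pcdh15, a protocadherin of sensory hair cells, had 2.9 (SE 0.523, adjusted p = 0.0183) and 2.02 (SE 0.403, adjusted p = 0.0212). Hapln3, which encodes a link protein of hyaluronan, had 0 counts in all 5 air macrophage libraries and 2, 6, 1, 1 and 3 counts in the PM2.5 ones, while its summed spleen counts were 327 in air and 170 in PM2.5 (adjusted p of the difference = 0.0247). No fold is given for it. Cdh11, a cadherin of stromal cells, and Rgs5, a gene of pericytes, were named after their values were seen, and had 1.5 (SE 0.35, adjusted p = 0.0449) and 3.0 (SE 0.661, adjusted p = 0.0382). Rgs5 was near 0 in macrophages, at 0.0399, 0.181, 0, 0.0514 and 0 CPM under air and 0.181 to 0.634 CPM under PM2.5, so its fold is uncertain.

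Transcripts of other spleen cells were also present in the macrophage preparations, and these positive calls were for genes that were lower in macrophages than in spleen. In log2 units, the level in macrophages over spleen was -1.39 for Ly6c2, -4.47 for Mfge8, -3.96 for Syt1 and -6.31 for Rgs5. The summed level of 17 B cell genes in macrophages was 8370 to 25500 CPM under air and 13900 to 41000 CPM under PM2.5, highest in PM2.5 replicates 1 and 4. That of 19 plasma cell genes was 3030 to 9970 CPM under air (median 3310) and 5980 to 22200 CPM under PM2.5 (median 10900). For 22 T cell genes it was 234 to 319 and 247 to 356 CPM, and for 20 reticular and smooth muscle genes 87.7 to 113 and 81.3 to 121 CPM. The T cell and reticular sums overlapped between air and PM2.5 macrophages. Of the defining stromal marker Ccl19, a T zone chemokine, macrophage libraries had 0.159 to 0.874 CPM under air and 0.363 to 0.845 CPM under PM2.5. Spleens had 104 to 174 CPM of Ccl19 under air and 70.8 to 116 CPM under PM2.5. Pdgfrb, the other defining stromal marker, had 3.87 to 6.76 CPM in macrophage air and 3.49 to 5.2 CPM in macrophage PM2.5. Cxcl13, in contrast, lay higher under PM2.5 in macrophages, at 2.43 to 5.78 CPM under air and 5.78 to 13.5 CPM under PM2.5. The part of such cells in the positive calls was not tested.

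T cell genes had a median effect of -0.28 in spleen and 0.36 in macrophages, and 2 of 22 differences passed, against 0.416% of all tested genes called above 0. Of 22 tested genes 20 had a positive difference, the median was 0.54, and the called genes were Cd3d and Trbc2, both parts of the T cell receptor complex. Cd3d had 153, 94.5, 158 and 128 CPM in spleen air and 76.3, 72.3, 87.3 and 68.5 CPM in spleen PM2.5, with no overlap, as for 4.38% of tested genes. In macrophages it had 4.86, 4.65, 4.55, 4.06 and 2.47 CPM under air and 9.61, 4.87, 5.3, 6.71 and 4.63 CPM under PM2.5. The difference was 1.38 (SE 0.295, adjusted p = 0.0316) for Cd3d and 1.32 (SE 0.314, adjusted p = 0.0466) for Trbc2. The marker Cd3e was at 93.9 ± 8.67 CPM in spleen air and 97.8 ± 15.1 CPM in spleen PM2.5 (SD, n = 4 each), with overlapping groups. B cell genes had a median difference of 0.39, with 15 of 17 positive and 0 called (smallest adjusted p = 0.108). The 19 plasma cell genes had 0.33, with 15 positive and 0 called (0.116). That median was 0.86 without macrophage air replicate 4, 0.53 without spleen air replicate 3 and -0.11 with macrophage PM2.5 replicate 1 counted as air (the list of plasma cells).

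The most uniform list among the positive differences was that of cytosolic ribosomal proteins. All 78 tested genes had a positive difference, with a median of 0.81, from a median effect of -0.63 in spleen and 0.17 in macrophages. All 78 spleen effects were negative and 61 were called, against 2.04% of all tested genes called down in spleen. All 78 macrophage effects were positive and 0 called. These effects include PM2.5 replicate 1, the library with the air tag, which was the highest macrophage library for each ribosomal gene named below. Of the differences 9 passed, against 0.416% of all tested genes. Rps27, of the small subunit, had 3240, 1510, 2270 and 2230 CPM in spleen air and 1120, 1170, 1360 and 1230 CPM in spleen PM2.5. Macrophage values were 561, 495, 530, 500 and 499 CPM under air and 788, 442, 441, 622 and 558 CPM under PM2.5. The spleen groups were apart, the macrophage groups overlapped with replicate 1 highest, and the difference was 1.06 (SE 0.259, adjusted p = 0.0478). Rpl23, Rpl24 and Rps13 had 0.95 (SE 0.217, adjusted p = 0.0424), 1.03 (SE 0.238, adjusted p = 0.044) and 0.86 (SE 0.205, adjusted p = 0.0469). For Rps13, macrophage PM2.5 replicate 1 had 739 CPM. The other PM2.5 macrophage libraries had 432 to 509 CPM, about the range of the air ones, 449 to 502 CPM. Ribosomal protein genes have many near-identical pseudogenes, so their counts are uncertain where the counting split such reads. The 9 calls were 0 with macrophage PM2.5 replicate 1 counted as air and 2 without it, and the median was then 0.51 and 0.64. The number was 75 without spleen air replicate 2, 66 in DESeq2 and 0 in limma-voom.

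Nuclear genes of the respiratory chain followed the ribosomal proteins at smaller size. Of 73 tested genes 71 were positive, and the median was 0.59. Cox6b1, a subunit of cytochrome c oxidase, was the 1 call, at 0.88 (SE 0.213, adjusted p = 0.047), against 0.416% of all tested genes called above 0. The 13 mitochondrially encoded genes were all positive with a median of 0.8 and 0 called, mt-Co3 at 1.16 (SE 0.435, adjusted p = 0.142). That median was 0.45 without spleen air replicate 1 and 1.27 without spleen PM2.5 replicates 2 and 4, and 1.25 without replicate 2 alone (the mitochondrially encoded respiratory chain). With macrophage PM2.5 replicate 1 counted as air the median of the nuclear genes was 0.32. Transcript length differed between the called genes: the longest annotated transcript had a median of 1773.5 bases over the 74 positive calls, 3462 over the negative calls with a transcript and 2942 over all tested genes. Median GC content was 48.2%, 52% and 49.4%. When each library's counts were adjusted for transcript length and GC by offsets, an alternative chosen after the data were seen, the calls were 33 positive and 113 negative and the ribosomal median was 0.69 with 3 called. Snrpd3, a core protein of spliceosomal particles, had 123, 67.7, 109 and 97.2 CPM in spleen air and 57, 69.6, 63.1 and 58.5 CPM in spleen PM2.5. In macrophages it had 36.4, 33.6, 37, 35.9 and 34.2 CPM under air and 54.5, 39.2, 41.2, 42.6 and 38.1 CPM under PM2.5, and the difference was 0.96 (SE 0.194, adjusted p = 0.0227). One PM2.5 spleen lay above the lowest air spleen, and all 5 PM2.5 macrophage libraries lay above all 5 air ones. Yeats4, a chromatin reader, Smndc1, a splicing factor, Ube2a, a ubiquitin-conjugating enzyme, and Bhlhb9 had differences of 0.72, 0.49, 0.54 and 0.86, with adjusted p of 0.0212, 0.0263, 0.0288 and 0.0296.

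**Figure D4:**
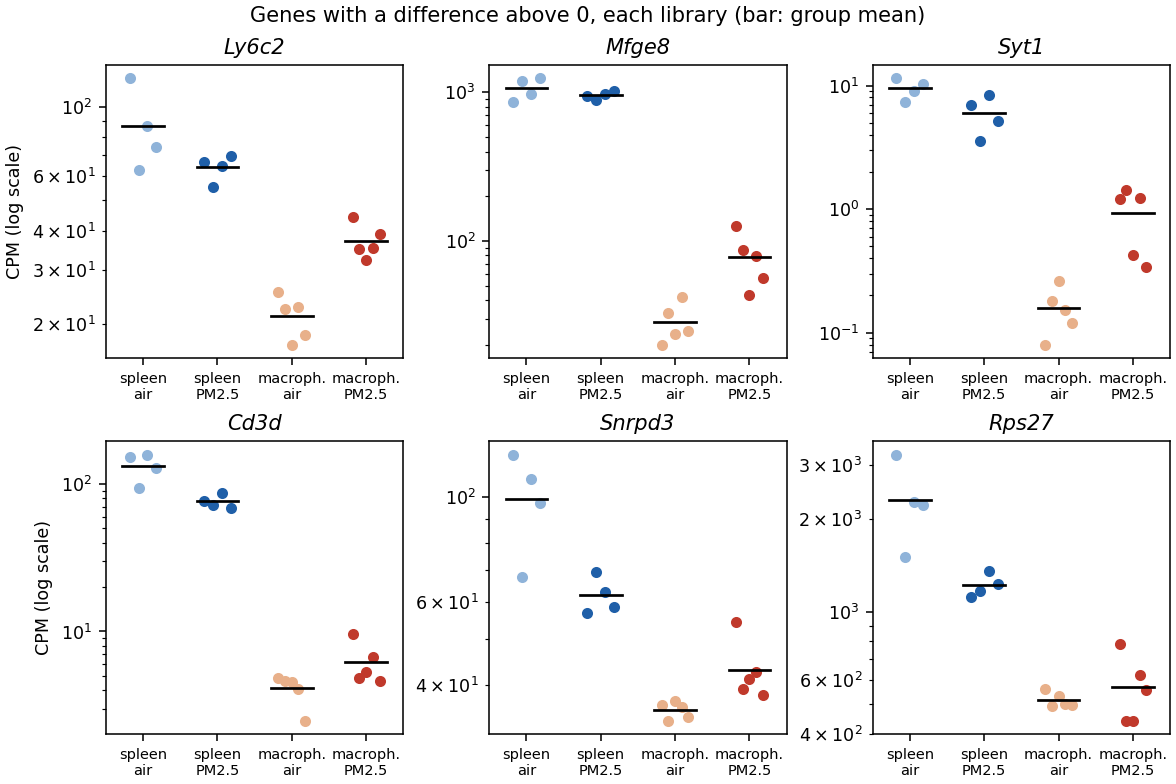
CPM on a log axis for 6 genes with a called difference above 0, 1 point per library in each of the 4 groups, with bars at the group means. In Ly6c2, Mfge8 and Syt1 the 2 macrophage groups are apart, and in Cd3d and Rps27 the 2 spleen groups are.

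Cholesterol synthesis and uptake had 3 positive calls among 24 tested genes, against 0.416% of all tested genes, and a median of 0.27. Cyp51, lanosterol demethylase, had 69.2, 55.5, 58 and 79.7 CPM in spleen air and 35.7, 29.4, 46.5 and 43.4 CPM in spleen PM2.5. In macrophages the values were 25.4, 22.3, 20.8, 20.3 and 20.5 CPM under air and 22.7, 24.8, 21.6, 21.6 and 23.6 CPM under PM2.5. Spleen groups were apart and macrophage groups overlapped, with a difference of 0.82 (SE 0.187, adjusted p = 0.0412). Fdps, farnesyl diphosphate synthase, and Acat2, acetyl-CoA acetyltransferase, had 0.86 (SE 0.205, adjusted p = 0.047) and 0.85 (SE 0.208, adjusted p = 0.0478). In limma-voom 0 of the 3 passed.

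Erythroid genes had very large negative differences that rested on few spleens. The 23 tested genes of erythroid factors and progenitors had a median of -3.01, with 22 negative, and effects of 3.86 in spleen and 0.71 in macrophages. One passed, against 1.04% of all tested genes called below 0: Epor, the erythropoietin receptor, at -3.74 (SE 0.826, adjusted p = 0.039). It had 1.74, 0.769, 0.473 and 1.81 CPM in spleen air and 2.3, 44.7, 5.98 and 15.5 CPM in spleen PM2.5. In macrophages the values were 34.4, 48.4, 31.5, 40 and 62.4 CPM under air and 49.6, 46.2, 52.7, 29.6 and 57.4 CPM under PM2.5. All 4 PM2.5 spleens were above the air spleens, replicate 2 by far the most, and the macrophage groups overlapped. For Gata1, the erythroid master regulator, spleen PM2.5 had 2.17, 61.8, 11.9 and 29.7 CPM and spleen air 6.38, 1.68, 2.32 and 1.7 CPM, with a difference of -2.26 (SE 0.981, adjusted p = 0.201). Klf1 and Sptb, an erythroid factor and beta spectrin, had -3.14 (SE 1.3, adjusted p = 0.183) and -5.15 (SE 1.36, adjusted p = 0.0574). In the macrophage preparations Sptb ranged from 5.91 to 218 CPM under air and from 52.8 to 255 CPM under PM2.5. The library lowest in Sptb, macrophage air replicate 3, had 1.05 CPM of Klf1 and 1.73 CPM of Gata1, but 31.5 CPM of Epor. Epor was far higher in macrophage air than in spleen air, so its call does not stand for erythroid cells alone. Genes of red cell membrane and maturation had a median of -2.78 with 0 of 26 called, Slc4a1, the anion exchanger band 3, at -5.02 (SE 1.41, adjusted p = 0.0667). Heme and globin synthesis had -0.89 with 0 of 19 called, including Alas2, the first enzyme of heme synthesis in red cells, at -3.48 (SE 0.992, adjusted p = 0.0691) and Hba-a1, alpha globin, at -2.7 (SE 0.934, adjusted p = 0.117). The 2 alpha globin genes are near-identical copies, so the count of Hba-a1 is uncertain. Without spleen PM2.5 replicates 2 and 4 the 3 list medians were -0.43, -0.41 and 0, and Epor was one of the calls lost. Without spleen PM2.5 replicate 2 alone they were -1.61, -1.49 and -0.25.

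Most genes listed for the capsule and stroma of the spleen also had negative differences. The 14 tested mesothelial genes were all negative, with a median of -3.23, made of 4.35 in spleen and 0.15 in macrophages, and 2 passed, Wt1 and Krt7. Over all tested genes 1.04% were called below 0, the share to read each count of calls here against. Wt1, a transcription factor of mesothelium, had 1.98, 1.68, 2.22 and 1.87 CPM in spleen air and 5.84, 6, 12.7 and 25.2 CPM in spleen PM2.5. Macrophage libraries had 0.438, 0.846, 1.09, 0.617 and 0.542 CPM under air and 0.363, 0.192, 0.682, 0.211 and 0.304 CPM under PM2.5. The spleen groups were apart, replicates 3 and 4 of PM2.5 being the highest, and the difference was -3.65 (SE 0.633, adjusted p = 0.0181). Krt7, a keratin, had -2.75 (SE 0.579, adjusted p = 0.029). It was not low in macrophages, at 2.57 to 5.36 CPM in macrophage air against 0.782 to 3.36 CPM in spleen air. The defining marker Msln was at 0.11 to 1.99 CPM in spleen air and 8.79 to 65.3 CPM in spleen PM2.5, and at 0.967 CPM or less in all macrophage libraries. The summed mesothelial list was at a similar level in air macrophages and air spleens, at 96.4 to 148 and 93.7 to 130 CPM. In spleen PM2.5 it was 157 to 424 CPM. Among reticular and smooth muscle genes, 15 of 20 were negative with a median of -0.74 (-0.4 without spleen PM2.5 replicate 4). Wt1, already counted above, and Tcf21, a mesenchymal factor needed for the spleen to form, passed, Tcf21 at -3.25 (SE 0.619, adjusted p = 0.0183). The summed level of this list overlapped between the spleen groups, at 1330 to 1800 CPM under air and 1420 to 1670 CPM under PM2.5. Of the defining stromal markers, Ccl19 had means of 142 CPM in spleen air and 89.1 CPM in spleen PM2.5, and Pdgfrb 17.4 and 27.2 CPM. The stromal genes Cdh11 and Rgs5 were called above 0 (values above). Of 32 collagen and matrix genes 28 were negative, at a median of -0.74, which was -0.29 without spleen PM2.5 replicates 2 and 4 and -0.31 without replicate 4 alone (the list of collagens and matrix). Col14a1, a collagen, and Nid2, a basement membrane protein, passed at -1.77 (SE 0.335, adjusted p = 0.0183) and -1.88 (SE 0.466, adjusted p = 0.0498). Both were far higher in macrophages than in whole spleen, so their calls do not stand for stroma alone. Col14a1 had 227 to 402 CPM in macrophage air and 13.7 to 17.7 CPM in spleen air. Nid2 had 39.4 to 59.9 and 1.26 to 2.74 CPM. Endothelial genes had -0.84, with 16 of 20 negative and 2 called, Stab2 and Eng, a coreceptor of the TGF-beta family, at -1.2 (SE 0.246, adjusted p = 0.0249). Of these, Stab2 was also far higher in macrophages than in whole spleen (values above). The summed endothelial list was 831 to 1040 CPM in macrophage air, 389 to 450 CPM in spleen air and 497 to 700 CPM in spleen PM2.5. The defining marker Cdh5 was at 17.8 ± 1.07 CPM in spleen air and 20.6 ± 2.78 CPM in spleen PM2.5 (SD, n = 4 each). Clca3a1, of a family of chloride channel regulators, had -1.86 (SE 0.413, adjusted p = 0.039). Its spleen values were 7.76, 4.52, 4.45 and 3.79 CPM under air and 21.3, 28.2, 22.3 and 30.3 CPM under PM2.5, with no overlap. How much capsule or stroma each spleen sample held was not measured apart from these genes, and its part in the negative calls was not tested.

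**Figure D5:**
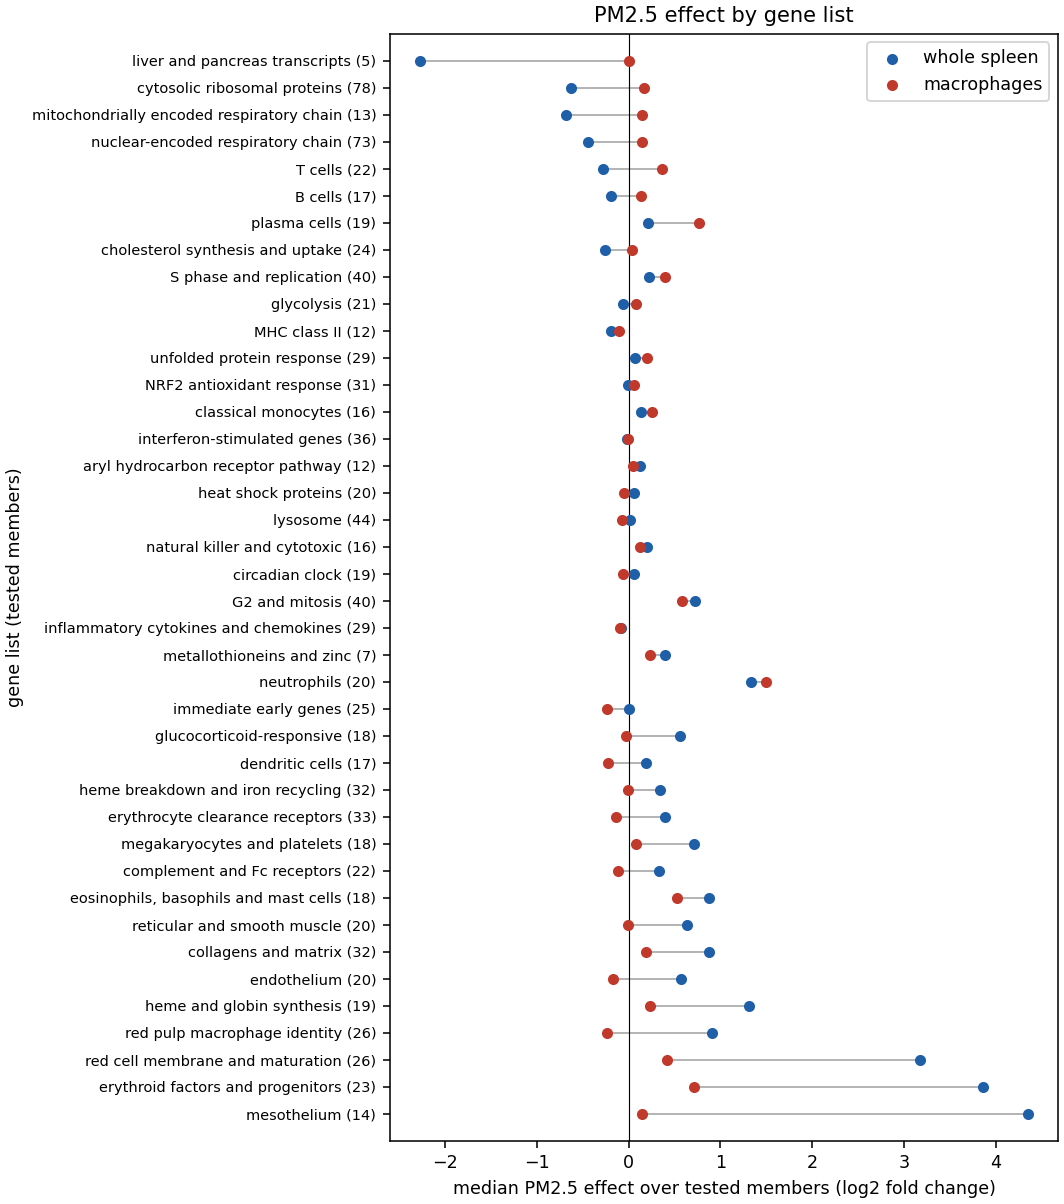
Median PM2.5 effect (log2 fold change) over the tested members of each of 40 gene lists, in whole spleen (blue) and macrophages (red), ordered by the median difference. The macrophage medians stay near 0 for most lists, while the spleen medians spread from -2.27 for 5 liver and pancreas genes to 4.35 for mesothelium.

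Stress, inflammatory and complement lists are given by their medians and calls, against 1.04% of all tested genes called below 0 and 0.416% above. The 31 tested NRF2 antioxidant genes had a median of 0.06, 18 positive and 13 negative, and 0 were called (smallest adjusted p = 0.0754). Nqo1, a quinone reductase of that list, had -0.92 (SE 0.758, adjusted p = 0.521), with a 95% interval of -2.50 to 0.67. The aryl hydrocarbon receptor list had -0.02 over 12 tested genes with 0 called (0.155), and Cyp1a1, its best known target, had too few counts to be tested. Interferon-stimulated genes had 0.03 over 36 genes with 0 called (0.0532). Of 29 inflammatory cytokine and chemokine genes 1 passed, at a list median of -0.17 (0.04 without spleen air replicates 3 and 4): Nlrp3, a sensor of the inflammasome. It had 1.26, 1.44, 2.03 and 2.31 CPM in spleen air and 3.01, 3.36, 3.51 and 2.85 CPM in spleen PM2.5, with no overlap, and a difference of -1.18 (SE 0.228, adjusted p = 0.0183). Of 18 glucocorticoid-responsive genes 3 passed below 0, Cd163, Errfi1, a feedback inhibitor of the EGF receptor, and Dusp1, a phosphatase of MAP kinases, at a median of -0.34, which was -0.59 with macrophage PM2.5 replicate 1 counted as air and -0.21 without macrophage air replicate 3. Errfi1 had -1.14 (SE 0.248, adjusted p = 0.0334) and Dusp1 -1.16 (SE 0.266, adjusted p = 0.0424). Lysosomal genes had a median of -0.09 over 44 genes, and 1 passed, the protease Ctsf at -2.08 (SE 0.38, adjusted p = 0.0183). Complement and Fc receptor genes had -0.53 over 22 (-0.32 without spleen air replicates 3 and 4), with Fcgr1 and C6 called below 0. Nlrp3, Dusp1 and Ctsf, like Cd163, Fcgr1 and C6, were far higher in macrophages than in whole spleen. These calls therefore do not stand for the named pathways alone. Nlrp3 had 41.8 to 60.5 CPM in macrophage air. Dusp1 had 740 to 937 CPM in macrophage air and 10.9 to 16.1 CPM in spleen air, and Ctsf 26.5 to 40.1 and 2.71 to 3.51 CPM. The intervals of single genes in these lists are wide, so a value near 0 does not show that the 2 preparations responded alike.

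Cell cycle and neutrophil genes had positive median effects in both preparations and median differences near 0. The 40 genes of G2 and mitosis had median effects of 0.72 in spleen and 0.58 in macrophages, and a median difference of -0.16. S phase genes had 0.22 and 0.4, and a difference of 0.19. For 20 tested neutrophil genes the effects were 1.33 and 1.5, and the difference -0.2. In these 3 lists 0 differences passed. Of the single effects 1 S phase gene and 4 neutrophil genes were called up in spleen, against 3.86% of all tested genes, and 0 in macrophages. Without spleen PM2.5 replicates 2 and 4 the G2 and mitosis difference was 0.65 and the S phase difference 0.52, and without replicate 2 alone 0.49 and 0.47. The neutrophil difference was -1.38 without spleen air replicate 1 and 0.22 without spleen PM2.5 replicate 4, and the sign of the G2 and mitosis difference also turned in limma-voom, at 0.14.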

How the data were processed

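Polyadenylated RNA of 18 libraries was sequenced. The authors deposited raw read counts per Ensembl gene, with HTSeq 0.10.0, FastQC 0.10.1 and mm10/GRCm38 named in the submitters' processing notes. The sources used here do not name the aligner, the annotation release or the use of strand, so overlapping and antisense genes cannot be told apart. GENCODE M21 gave names to 52081 of 55414 identifiers and to 17679 of the 17779 tested.

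Counts were scaled by TMM, filtered (filterByExpr, minimum count 10, minimum total 15) and fitted with edgeR 4.0.16 (R 4.3.3) by quasi-likelihood, with 4 group means and no covariate. Tests were two-sided, with Benjamini-Hochberg adjustment over all tested genes and a threshold of 0.05. The SE is the size of the log2 difference over the root of F. DESeq2 1.42.0, limma 3.58.1, other scalings and filters, a replicate block and omitted libraries were alternatives. No 2 libraries held the same values.

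Genes are named if among the 12 with the smallest p per direction (with a symbol, at least 1 CPM in a preparation, no predicted models), among the up to 4 smallest p of a list, or in a panel. The members and lists were chosen with earlier results of these data known.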

Additional observations from a re-analysis of the deposited data

Results flagged for a closer look

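Of 284 combinations of a named gene and a group, 28 had 1 library far from the rest, its gap to the nearest library being large against the range of the group. Chance gives such a gap in about 1 in 20 groups. In spleen air replicate 1 this held for Spic at 52.6 CPM, Vcam1 at 184 CPM, Slc40a1 at 67.1 CPM, Hmox1 at 144 CPM, Gata1 at 6.38 CPM, Alas2 at 60 CPM and Slc4a1 at 21.4 CPM. In macrophage PM2.5 replicate 4 this held for Mrc1 at 1310 CPM, Slc45a3 at 233 CPM, Dusp1 at 582 CPM and Rgs5 at 0.634 CPM. In macrophage PM2.5 replicate 1 this held for Snrpd3 at 54.5 CPM, Rps13 at 739 CPM and Cox6b1 at 100 CPM. In spleen air replicate 2 this held for Ceacam18 at 0.048 CPM, Eng at 36.6 CPM and 4931431B13Rik at 0.192 CPM. Macrophage air replicate 5 did so for Itgad at 2360 CPM and Fcgr1 at 107 CPM. Macrophage air replicate 2 did so for Clca3a1 at 6.64 CPM and Rgs5 at 0.181 CPM. Spleen air replicate 4 did so for Pcdh15 at 9.33 CPM. Macrophage air replicate 1 did so for Hcar2 at 133 CPM. Macrophage PM2.5 replicate 2 did so for Gpr141 at 88.8 CPM. Spleen air replicate 3 did so for Slc45a3 at 2.55 CPM. Macrophage air replicate 3 did so for Nlrp3 at 60.5 CPM. Macrophage air replicate 4 did so for Eng at 19.7 CPM. Spleen PM2.5 replicate 2 did so for mt-Co3 at 29.2 CPM. For Ceacam18 and 4931431B13Rik in spleen air the other 3 libraries had 0 counts, so the gap equals the range by construction and carries no information.

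For 53 of the 71 genes checked here the PM2.5 effect differed between the 2 preparations by the edgeR test of the difference itself. Many of the 71 were named for a small p in this same test, so that share follows from the choice. Over all tested genes 1.46% passed. Csf1r, Adgre1, Treml4 and Cma1, which also passed, were not among the 71. The log2 difference was below 0 for Stab2 -2.08, Gdpd2 -3.85, Hcar2 -3.0, Mrc1 -2.8, Ccr3 -3.41, Cd163 -2.59, Gpr141 -1.31, Pira2 -1.58, Slc45a3 -1.8, Raver2 -1.17, Wt1 -3.65, Siglece -2.48, Clca3a1 -1.86, Epor -3.74, Fcgr1 -2.78, Lrp1 -2.34, Stab1 -2.21, C6 -2.67, Nlrp3 -1.18, Ctsf -2.08, Eng -1.2, Tcf21 -3.25, Krt7 -2.75, Col14a1 -1.77, Nid2 -1.88, Dusp1 -1.16, Errfi1 -1.14, Slc39a8 -2.31 and 4931431B13Rik -5.35. It was above 0 for Mlc1 2.9, Ly6c2 1.24, Syt1 3.1, Yeats4 0.72, Pcdh15 2.02, Snrpd3 0.96, Smndc1 0.49, Ube2a 0.54, Bhlhb9 0.86, Cd3d 1.38, Mfge8 1.62, Trbc2 1.32, Rpl23 0.95, Rpl24 1.03, Rps13 0.86, Rps27 1.06, Cox6b1 0.88, Cyp51 0.82, Fdps 0.86, Acat2 0.85, Cdh11 1.5 and Rgs5 3.0. In Hapln3 (adjusted p = 0.0247) and Ceacam18 (adjusted p = 0.0107) 1 group held at most 3 counts, and no log2 difference is given for them.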

How the results depend on the processing

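The number of called differences (259) was 1044 in DESeq2, 3 in limma-voom, 2 in limma-voom with quality weights by preparation, 146 with offsets for length and GC content and 1102 at an adjusted p threshold of 0.1. It was 87 with macrophage PM2.5 replicate 1 counted as air, 9 without spleen air replicates 3 and 4, 48 without spleen PM2.5 replicates 2 and 4, and 68 to 1317 on omitting single libraries. The spleen count (1050) was 2089 in DESeq2, 4 with quality weights, 39 without spleen air replicates 3 and 4, 150 without spleen PM2.5 replicates 2 and 4, 2341 at a threshold of 0.1, 2 with spleen libraries fitted alone, and 230 to 2289 on omitting single libraries. The macrophage count (0) was 76 in DESeq2, 8 with quality weights, 29 with no filter, 4 in a robust fit, 1 with the offsets, 14 at a threshold of 0.1, and 0 to 41 on omitting single libraries, the 41 without macrophage air replicate 4. The cause of these shifts was not tested. Offsets and separate fits were chosen after the data were seen.

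Directions of the named genes held except for Fth1 (-0.03 with macrophage PM2.5 replicate 1 counted as air), Nqo1 (0.03 without spleen PM2.5 replicates 2 and 4) and Pla2g7, which was 0.25 without spleen air replicates 3 and 4, 0.03 without spleen air replicate 2, 0.1 without spleen air replicate 3, 0.03 without spleen PM2.5 replicate 3 and 0.05 without macrophage PM2.5 replicate 4 (-0.44 to 0.1 over all single omissions). With no filter the median difference of all genes was -0.111, against -0.032.

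With a replicate block the counts were 91 differences and 293 spleen genes. Deviations of same-numbered libraries correlated weakly, at -0.116 to 0.053 in spleen and -0.113 to 0.214 in macrophages. The same number was the best match for spleen replicate 3 and macrophage replicates 4 and 5. Such low values cannot exclude that libraries were paired.

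Depth limits genes near 0 counts in a group, such as Hapln3, Ceacam18, Cma1, Rgs5 and 4931431B13Rik. The log2 differences printed for Rgs5 and 4931431B13Rik are therefore uncertain in size.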
